A study of Mus musculus with 10 samples.

Results

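Genes of neutrophils and of macrophages recruited from blood were followed across 10 Illumina Mouse-6 bead arrays of mouse brain. The members are every probe assigned to S100a8, S100a9, Fpr2, Clec4d, Arg1, Chil3, Chil4, Mrc1, Ms4a6d or Ms4a7. Of these 10 genes, 9 had a probe, with 14 probes in all, out of 17668 genes and 46373 probes on the array. Chil3 had none. Each array was the only one of its group, and the groups combined 2 genotypes with 5 conditions. Mice were either wild type (WT) or carried a knockout (KO) of Cd93, which encodes a glycoprotein of endothelial and myeloid cells. Mice of both kinds were of the C57/Bl6 strain and 10 weeks old, and the labels name no cell type or driver to which the knockout was restricted. The 5 conditions were untreated brain and the ipsilateral and contralateral hemispheres under each of 2 protocols of middle cerebral artery occlusion, a stroke model in which a brain artery is blocked and reopened. The 48 h protocol had 60 min of occlusion and 48 h of reperfusion, and the 72 h protocol had 30 min of occlusion and 72 h of reperfusion, so duration of occlusion and time of sampling cannot be told apart. The labels do not tell single mice from pools, nor whether the hemispheres of a group were paired within mice. Paired hemispheres would not be independent arrays.

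In a stroke, blood leukocytes enter the injured tissue. Neutrophils arrive early and are followed by monocytes, which turn into macrophages beside the resident microglia. S100a8 and S100a9 encode the paired calcium-binding proteins of calprotectin, abundant in neutrophils and present in monocytes. Fpr2 is a receptor for formylated peptides released by bacteria and damaged mitochondria, and Clec4d is a C-type lectin receptor of neutrophils and monocytes. Arg1, which splits arginine into ornithine and urea, and the chitinase-like genes Chil3 and Chil4 are mouse markers of alternatively activated macrophages. Mrc1 is the mannose receptor, which in brain marks macrophages of the vessels and meninges. Ms4a6d and Ms4a7 encode membrane-spanning proteins of macrophages, low in resting microglia. The arrays hold bulk tissue, where fewer cells of a type and less RNA per cell cannot be told apart.

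The genes lie in small groups on the genome (RefSeq, build GRCm38.p6, which served for names because the array files name no build). S100a8 (chr3:90669071-90670034) and S100a9 (chr3:90692630-90695721) are neighbours, Chil3 and Chil4 lie further along chromosome 3, and Ms4a6d and Ms4a7 lie on chromosome 19. Mrc1 shares chromosome 2 with Cd93. The 250 bases before the start of a gene are shown for the calprotectin pair and the chitinase-like pair, because S100a8 and S100a9 had similar patterns (Pearson's r = 0.94 over the 10 arrays, a description) and Chil3, unmeasured here, is a close copy of Chil4. The window of Mrc1, whose highest level was on a WT array, is added. Capitals mark matches, on either strand, to GAGGAA (bound by PU.1, a factor of myeloid cells, and present in 23.3% of 32851 such windows) or to TTGCNNAA (bound by C/EBP factors, in 9.56%). None of the 5 windows shown held a match to the palindrome bound by STAT factors, which 5.85% of windows held. A window of Ms4a7, not shown, held such a match. No 2 matches overlapped. All are RefSeq sequences of GRCm38.p6, written 5′ to 3′ on the strand of the gene. They span chr3:90668821-90669070 (plus strand) for S100a8, chr3:90695722-90695971 (minus) for S100a9, chr3:106167565-106167814 (minus) for Chil3, chr3:106219480-106219729 (minus) for Chil4 and chr2:14229164-14229413 (plus) for Mrc1.
S100a8: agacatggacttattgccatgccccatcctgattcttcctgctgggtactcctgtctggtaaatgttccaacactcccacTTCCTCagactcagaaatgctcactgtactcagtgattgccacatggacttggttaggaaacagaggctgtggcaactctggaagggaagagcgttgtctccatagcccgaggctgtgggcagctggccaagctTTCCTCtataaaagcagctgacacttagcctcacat
S100a9: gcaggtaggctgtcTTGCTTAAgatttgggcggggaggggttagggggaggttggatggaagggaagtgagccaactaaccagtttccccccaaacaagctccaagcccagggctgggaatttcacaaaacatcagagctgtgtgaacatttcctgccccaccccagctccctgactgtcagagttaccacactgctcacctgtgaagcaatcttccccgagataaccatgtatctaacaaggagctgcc
Chil3: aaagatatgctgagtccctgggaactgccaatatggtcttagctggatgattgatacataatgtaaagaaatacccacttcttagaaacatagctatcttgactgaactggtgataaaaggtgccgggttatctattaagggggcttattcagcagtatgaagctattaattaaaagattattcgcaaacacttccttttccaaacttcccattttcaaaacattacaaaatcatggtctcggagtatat
Chil4: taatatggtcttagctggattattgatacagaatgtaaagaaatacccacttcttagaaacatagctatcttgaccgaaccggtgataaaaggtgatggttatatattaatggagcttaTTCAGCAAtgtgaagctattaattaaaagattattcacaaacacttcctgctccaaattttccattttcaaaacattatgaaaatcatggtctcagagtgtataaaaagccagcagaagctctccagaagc
Mrc1: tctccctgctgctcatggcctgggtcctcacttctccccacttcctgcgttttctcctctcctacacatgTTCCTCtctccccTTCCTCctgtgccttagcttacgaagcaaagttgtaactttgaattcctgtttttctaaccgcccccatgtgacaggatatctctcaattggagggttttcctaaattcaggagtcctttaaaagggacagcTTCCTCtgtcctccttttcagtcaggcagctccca
The S100a8 window held 2 PU.1 matches, 170 and 36 bases before the start, and the Mrc1 window held 3, at 180, 167 and 35 bases. The S100a9 and Chil4 windows each held 1 C/EBP match, at 236 and 131 bases, and the Chil3 window held none of the 3 motifs. The Chil3 and Chil4 windows were identical at 72.8% of aligned bases, against 52.1% for S100a8 and S100a9. A match describes letters in a window and does not show binding.

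The number of probes above background (detection p under 0.01) was 12811 to 16310 per array, with median raw intensities of 51.4 to 58.9. Levels below are log2 normalized intensities. Levels of different probes are not compared, since probes bind with different strength. Cd93 was lower in KO in all 5 conditions, by 1.53 ± 0.18 (log2, SE) for the brighter of 2 probes (limma adjusted p = 0.00207). KO signal above background remained in both ipsilateral hemispheres (6.23 and 6.24, against 8.66 and 7.83 in WT), and where the probe lies relative to the deletion is not given. Detection did not follow intensity alone. The lowest detected level on an array was 4.94 to 5.18, while some higher values were not detected.

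Of the 14 member probes, 11 were above background on at least 2 arrays and entered the fit over 16067 probes. The other 3 probes, Chil4 probe 3 and Ms4a7 probes 2 and 3 (probes of a gene are numbered by brightness), were below background on all 10 arrays. They therefore did not follow the brighter probes of their genes. No member probe was above background on all 10 arrays. Mrc1 and Ms4a6d probe 1 were detected most widely, on 8 arrays each, and Chil4 probe 2 was detected on the 2 KO ipsilateral arrays alone among the 10. In untreated brain, 1 of the 11 fitted probes was detected, Mrc1 in WT.

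**Figure D1:**
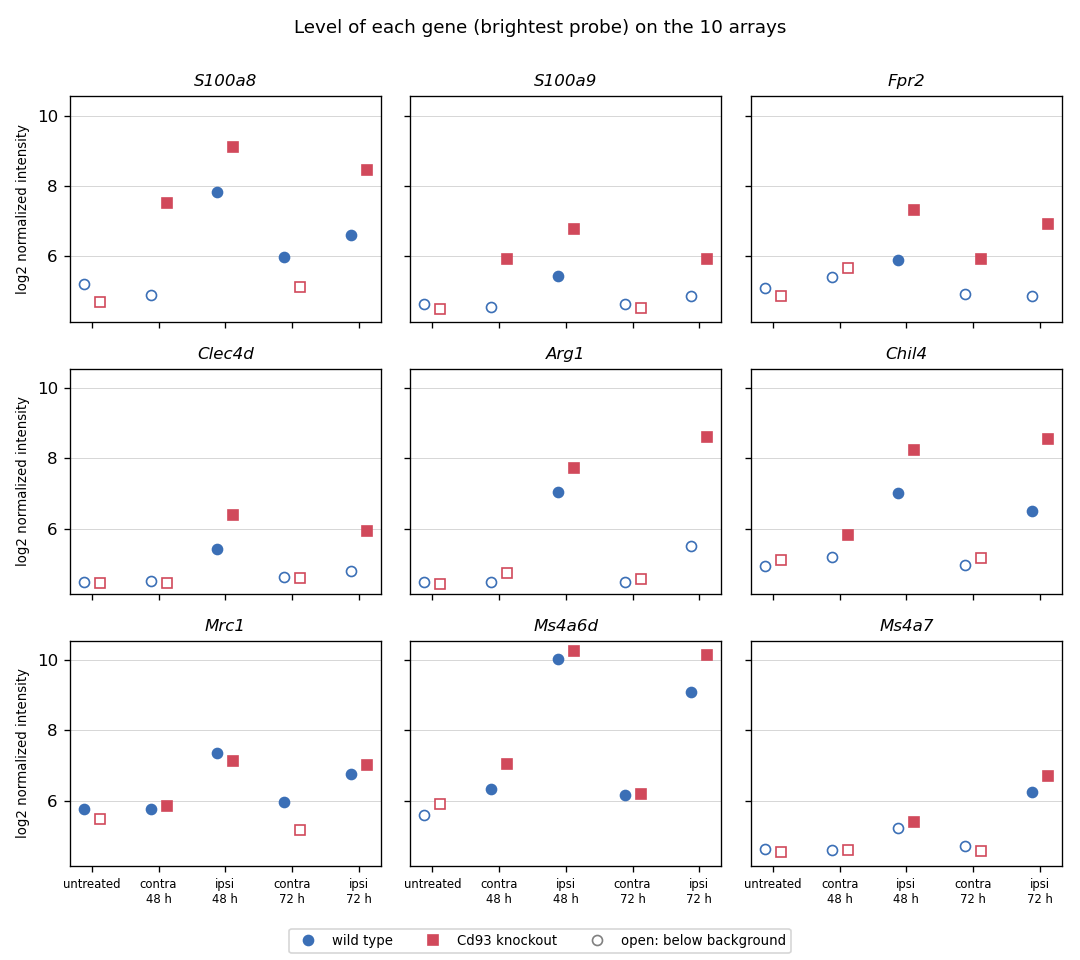
Level of the brightest probe of each of the 9 genes (y axis, log2 normalized intensity) in the 5 conditions (x axis), 1 point per array, with WT as circles and KO as squares. Open symbols are arrays where the probe was below background. Filled symbols gather in the ipsilateral columns, and in ipsilateral tissue at 72 h the KO square lies above the WT circle for all 9 genes.

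The S100a8 level was 5.22 in WT and 4.72 in KO untreated brain, both below background. Under the 48 h protocol it was 4.90 in WT and 7.53 in KO contralateral tissue, and 7.84 and 9.10 in WT and KO ipsilateral tissue. Under the 72 h protocol the contralateral levels were 5.99 in WT and 5.13 in KO, and the ipsilateral levels 6.60 and 8.44. S100a8 was thus highest in the 2 KO ipsilateral hemispheres, and the KO contralateral hemisphere at 48 h lay above the WT ipsilateral hemisphere at 72 h, so ipsilateral and other arrays overlapped. For S100a9 the untreated levels were 4.66 in WT and 4.51 in KO. The 48 h protocol gave 4.56 and 5.92 in WT and KO contralateral tissue and 5.44 and 6.77 in WT and KO ipsilateral tissue. The 72 h protocol gave 4.66, 4.54, 4.87 and 5.93 in the same order. S100a9 had the same KO contralateral array above the WT ipsilateral array of its own protocol, and stood above background on 4 arrays, 3 of them KO.

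Both receptors of neutrophils and monocytes were highest in KO ipsilateral tissue. The Fpr2 level in untreated brain was 5.09 in WT and 4.89 in KO, below background. At 48 h it was 5.42 and 5.67 in WT and KO contralateral tissue, below background, and 5.89 and 7.32 ipsilaterally. At 72 h it was 4.94 and 4.89 in WT contralateral and ipsilateral tissue, both below background, and 5.92 and 6.93 in KO. Fpr2 was thus above background on 3 KO arrays and 1 WT array. Clec4d lay between 4.45 and 4.63 in all 6 arrays of untreated and contralateral tissue. Its ipsilateral levels were 5.44 in WT and 6.39 in KO at 48 h, and 4.81 (below background) and 5.94 at 72 h. The ipsilateral arrays of Clec4d did not overlap with the others.

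Arg1 was below background in all 6 untreated and contralateral samples, with levels from 4.44 to 4.75. Ipsilaterally it reached 7.05 in WT and 7.71 in KO at 48 h. At 72 h it was 5.52 in WT, not above background, and 8.61 in KO, the highest Arg1 level of the 10 arrays. Between protocols, ipsilateral Arg1 was lower at 72 h in WT and higher in KO, a difference between single arrays. Chil4 probe 1 was 4.95 and 5.11 in WT and KO untreated tissue. It was 5.19 and 5.81 in WT and KO contralateral tissue at 48 h, of which only the KO value was detected, and 4.96 and 5.16 at 72 h. Its ipsilateral levels were 7.02 in WT and 8.24 in KO at 48 h, and 6.50 and 8.54 at 72 h. Chil4 probe 2 was dimmer, with ipsilateral levels of 5.30 and 6.32 at 48 h and 4.82 and 6.41 at 72 h, in the same order of arrays as probe 1. Chil3 and Chil4 are closely similar paralogs. Whether the Chil4 probes also bound Chil3 transcripts was not tested.

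The macrophage surface genes were highest in ipsilateral tissue in both genotypes. Mrc1 was 5.78 in WT and 5.49 in KO untreated brain, and 5.77 and 5.85 in WT and KO contralateral tissue at 48 h. The contralateral levels at 72 h were 5.97 and 5.17, the latter below background. Ipsilaterally it was 7.37 in WT and 7.12 in KO at 48 h, and 6.75 and 7.02 at 72 h. Ipsilateral Mrc1 was above every other array in both genotypes, and WT had the highest value. Ms4a6d probe 1 was 5.59 and 5.91 in WT and KO untreated tissue, below background, and between 6.17 and 7.05 contralaterally. Its ipsilateral levels were 10.03 in WT and 10.25 in KO at 48 h, and 9.08 and 10.15 at 72 h, a gap of over 2 log2 units to the highest contralateral value. Ms4a6d probe 2 was undetected outside ipsilateral tissue and reached 6.12 and 6.55 at 48 h and 5.75 and 7.01 at 72 h in WT and KO. Ms4a7 probe 1 lay between 4.55 and 4.71 in the 6 untreated and contralateral samples. It was 5.23 in WT (below background) and 5.41 in KO ipsilateral tissue at 48 h, and 6.25 and 6.71 at 72 h, so both genotypes were higher under the 72 h protocol.

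For 8 of the 11 fitted probes (those of Clec4d, Arg1, Chil4, Mrc1, Ms4a6d and Ms4a7), all 4 ipsilateral arrays lay above all 6 other arrays. The same held for 9.69% of the 16067 fitted probes. The exceptions were S100a8, S100a9 and Fpr2. The probes of Clec4d, Arg1 and Ms4a7 and the dimmer ones of Chil4 and Ms4a6d were detected in no untreated or contralateral sample. These 5 entered the fit through ipsilateral arrays, and their ipsilateral excess was largely set by that filter. Of the 6 probes also detected elsewhere, 3 were separated (Chil4 probe 1, Mrc1 and Ms4a6d probe 1). S100a9, Fpr2 and Chil4 probe 1 were each detected on only 1 array outside ipsilateral tissue. They too needed an ipsilateral array to reach the 2 arrays that the filter asks for.

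The first comparison asked how far the genes differed between hemispheres after 60 min of occlusion and 48 h of reperfusion. In an additive limma model of condition and genotype over all 10 arrays, 8 of the 11 member probes, from 6 genes, were higher in ipsilateral tissue at an adjusted p under 0.05 and none was lower. Across all fitted probes 9.63% were called higher. Of the 8, 3 belonged to the 6 probes detected outside ipsilateral tissue as well, and the other 5 carry the limit of the filter. Among the 3, Chil4 probe 1 also needed an ipsilateral array to pass the filter, unlike Mrc1 and Ms4a6d probe 1. The median difference of the member probes was 1.44 and that of all fitted probes was -0.04 (log2). Ms4a6d probe 1 had the largest difference, 3.45 ± 0.22 (SE, adjusted p = 5.99e-05), with 3.70 in the WT pair of hemispheres and 3.21 in the KO pair. Its probe 2 rose at least 2.37-fold, the bound that background allows. Arg1 rose at least 4.92-fold (2.76 ± 0.60, adjusted p = 0.0155), by 2.56 in WT and 2.96 in KO. Chil4 probe 1 rose by 2.13 ± 0.37 (adjusted p = 0.00571) and its probe 2 at least 1.65-fold (adjusted p = 0.0409). Mrc1 rose by 1.44 ± 0.21 (adjusted p = 0.00247), Clec4d at least 1.78-fold (adjusted p = 0.0115) and Ms4a7 at least 1.18-fold (adjusted p = 0.0143).

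S100a8, S100a9 and Fpr2 did not pass in that comparison. S100a8 had a large difference with a large error, 2.25 ± 0.69 (adjusted p = 0.0527), with 2.94 in WT and 1.57 in KO, whose contralateral level was already high. Over the alternatives its adjusted p ran from 0.00149 (the protocol's 4 arrays alone) to 0.362 (without the WT contralateral array, where the difference was 1.16). S100a9 differed by 0.87 ± 0.36 (adjusted p = 0.127), and its WT and KO pairs gave nearly the same value, 0.88 and 0.86. Fpr2 differed by 1.06 ± 0.42 (adjusted p = 0.111), with 0.47 in WT and 1.65 in KO. With the hemispheres of a genotype and protocol taken as pairs, a setting chosen after seeing the data, all 11 probes passed, S100a8 at an adjusted p of 0.0243, S100a9 at 0.032 and Fpr2 at 0.0388. The labels do not say that these hemispheres share mice. The calls of Mrc1 and of both Ms4a6d probes held whichever array was left out. Those of Arg1 (adjusted p = 0.0549 to 0.0913), Chil4 probe 2 (0.0776 to 0.283) and Ms4a7 (0.0645 to 0.131) were lost without any of the protocol's 4 arrays. Clec4d lost its call without the KO contralateral (1.16, adjusted p = 0.0804) or KO ipsilateral array (1.08, adjusted p = 0.131), and Chil4 probe 1 without the latter (1.89, adjusted p = 0.069).

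After 30 min of occlusion and 72 h of reperfusion, 6 of the 11 member probes, from 5 genes, were higher in ipsilateral tissue and none was lower, against 7.62% of all fitted probes called higher. Again 3 of these were among the 6 probes detected outside ipsilateral tissue, of which Chil4 probe 1 needed an ipsilateral array to pass the filter. The median was 1.84 for the member probes and -0.07 for all. Ms4a6d probe 1 again led with 3.43 ± 0.22 (adjusted p = 1.22e-05), and its probe 2 rose at least 2.58-fold (adjusted p = 0.00123). Ms4a7 rose at least 2.75-fold (1.84 ± 0.15, adjusted p = 4.75e-05), with 1.54 in WT and 2.13 in KO. Chil4 probe 1 rose at least 5.52-fold (adjusted p = 0.00216), by 1.55 in WT and 3.38 in KO. Mrc1 rose by 1.31 ± 0.21 (adjusted p = 0.00351).

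Arg1 also passed at 72 h, at least 4.14-fold higher (2.53 ± 0.60, adjusted p = 0.0254), and its pairs differed widely, with 1.02 in WT and 4.04 in KO. Without the KO ipsilateral array the Arg1 difference was 1.11, without the WT ipsilateral array it was 3.95, and the call was lost without the KO contralateral array (2.07, adjusted p = 0.172). Mrc1 lost its call without the KO ipsilateral array (1.02, adjusted p = 0.0584). S100a8 (1.96 ± 0.69, adjusted p = 0.108), S100a9 (adjusted p = 0.202), Fpr2 (0.48 ± 0.42, adjusted p = 0.518), Clec4d (adjusted p = 0.134) and Chil4 probe 2 (adjusted p = 0.0742) did not pass. Without the WT ipsilateral array Clec4d (1.23, adjusted p = 0.0467) and Chil4 probe 2 (1.76, adjusted p = 0.00831) did, and S100a8 did without the WT contralateral array (3.04, adjusted p = 0.034). In the WT pair the differences of these 5 probes ran from -0.06 (Fpr2) to 0.61 (S100a8), and in the KO pair from 1.01 (Fpr2) to 3.31 (S100a8). Of these probes only S100a8 was above background on the WT arrays at 72 h, so the other WT differences are between background values.

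**Figure D2:**
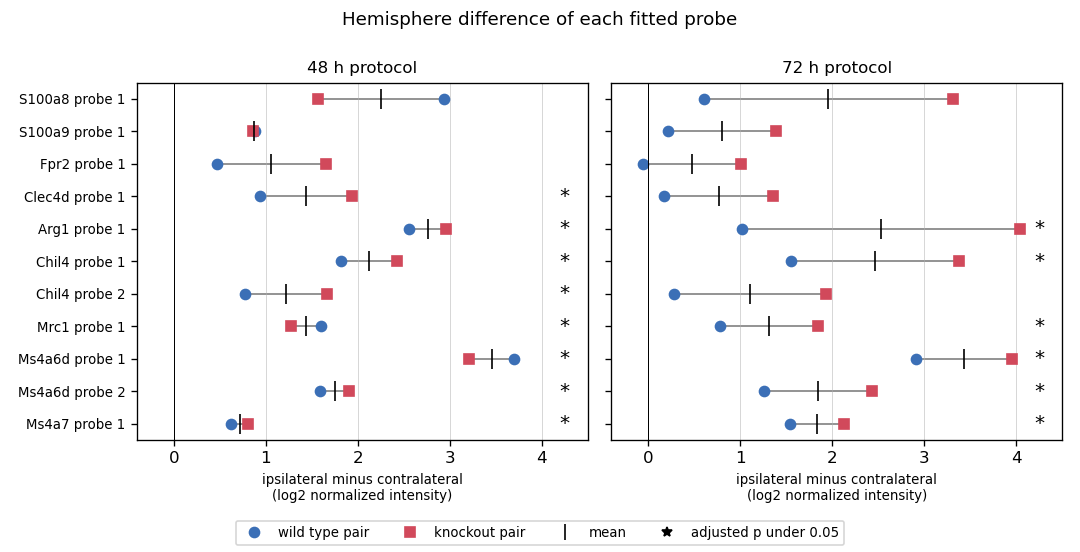
Ipsilateral minus contralateral difference of each fitted probe (x axis, log2 normalized intensity) under the 48 h protocol (left) and the 72 h protocol (right), with the WT pair as a circle, the KO pair as a square and a tick at their mean. Stars mark an adjusted p under 0.05. At 72 h the KO pair gave the larger difference for all 11 probes, while at 48 h the pairs were closer for most.

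Between the ipsilateral hemispheres of the 2 protocols, Ms4a7 was the only member probe called, higher at 72 h by 1.15 ± 0.15 (adjusted p = 0.0131), where 1.04% of all fitted probes were called higher. The call was lost without the WT (1.10, adjusted p = 0.0964) or KO (1.21, adjusted p = 0.198) ipsilateral array of the 48 h protocol, or the KO ipsilateral array of the 72 h protocol (0.92, adjusted p = 0.0808). The other 10 probes differed by between -0.95 (S100a8) and 0.05, with adjusted p from 0.213 to 0.938. A test of whether the hemisphere difference itself changed with protocol called none of the 11 (4 of all fitted probes, 0.0249%), with the smallest adjusted p for Ms4a7 (1.12 ± 0.22, adjusted p = 0.202) and 1 of the 11 at an unadjusted p under 0.05, against 9.58%.

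The next question was how the genes differed between KO and WT in each condition. Each value is a difference between 2 arrays, with no replicate and no test. In untreated brain the fitted differences of the 11 probes lay between -0.51 and 0.32 (log2), none past 2-fold (0.143% of fitted probes), and the only probe measured in either genotype, Mrc1, was at least 1.23-fold higher in WT. In contralateral tissue at 48 h, S100a8 was at least 5.25-fold and S100a9 at least 1.72-fold higher in KO, so that 1 of the 11 probes was past 2-fold by its bound (0.168% of fitted probes) and 2 were by the fitted difference (0.193%). Chil4 probe 1 was at least 1.54-fold higher in KO there, and Ms4a6d probe 1 was higher by 0.72. In contralateral tissue at 72 h no probe was past 2-fold with KO higher (background 0.554%). S100a8 and Mrc1 were at least 1.82-fold and 1.75-fold higher in WT, and Fpr2 was at least 1.97-fold higher in KO. The contralateral S100a8 difference therefore had opposite signs under the 2 protocols.

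In ipsilateral tissue at 48 h, 10 of the 11 probes were higher in KO (49.0% of all fitted probes). By the bound, 5 of the 11 were at least 2-fold higher (0.131%), as by the fitted difference (0.137%). Fpr2 was higher by 1.43, S100a9 by 1.33, S100a8 by 1.26, Chil4 probe 1 by 1.23 and Chil4 probe 2 at least 2.04-fold. Clec4d was higher in KO by 0.96, Arg1 by 0.66, the Ms4a6d probes by 0.22 and 0.42 and Ms4a7 at least 1.13-fold, and Mrc1 differed by -0.25. In ipsilateral tissue at 72 h all 11 probes were higher in KO (47.4%), 7 of them at least 2-fold by the bound (0.654%) and 9 by the fitted difference (0.678%). Arg1 was at least 8.48-fold higher in KO. Chil4 probe 1 was 4.11-fold higher, Fpr2 at least 3.96-fold, S100a8 by 1.84, Clec4d at least 1.99-fold and S100a9 at least 1.98-fold. The probes of Ms4a6d were higher by 1.07 and 1.27, and Ms4a7 (0.46) and Mrc1 (0.27) were below 2-fold. Chil4 probe 2, at least 2.76-fold higher, had been detected on no WT array and entered the fit through the 2 KO ipsilateral arrays alone, so its KO excess there is no independent value. S100a9, Fpr2, Clec4d, Arg1 and Ms4a7 were each detected on 1 WT array and also needed a KO array to pass the filter. The counts with KO higher carry this limit in both protocols. Without background correction the counts by the fitted difference were 1 of 11 at 48 h and 5 of 11 at 72 h, and the count at 72 h was also 5 with the authors' values.

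**Figure D3:**
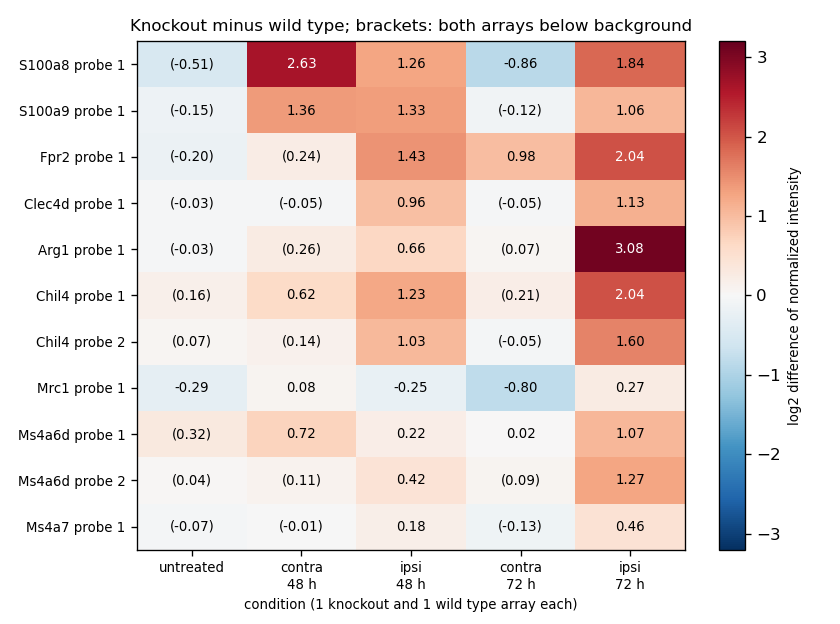
Knockout minus wild type difference of log2 normalized intensity (colour and number) for each of the 11 fitted probes (rows) in the 5 conditions (columns), each the fitted difference of 1 KO and 1 WT array, with no bound applied. Numbers in brackets are pairs where both arrays were below background. The ipsilateral columns are red except Mrc1 at 48 h (-0.25), and the darkest cells are Arg1 at 72 h (3.08) and S100a8 in contralateral tissue at 48 h (2.63).

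By the bound, KO was at least 2-fold higher in the ipsilateral pairs of both protocols for 4 of the 11 probes, those of S100a8, Fpr2 and Chil4 (probes 1 and 2), and for 17 of all fitted probes (0.106%). By the fitted difference S100a9 made 5 of the 11, among 18 probes (0.112%). Fpr2, S100a9 and Chil4 probe 2 needed KO arrays to pass the detection filter, while S100a8 and Chil4 probe 1 did not. At 1.5-fold the count was 7 of 11 (0.336%), and at any size 10 of 11 (28.9%). KO was higher in all 5 conditions for 3 of the 11 (7.27%). The other 13 of the 18 were 3 unnamed probes and 10 probes of 9 genes, which are named here after their values were seen (Ccl21a, Ccl21b, Saa3, Stk4, Pla2g4e, Ppp1r16b, Ubr1, Sys1 and Cntfr). In untreated brain, the KO excess of these 10 probes ran from 0.82 (Sys1) to 4.41 (Ccl21b), apart from Saa3 (0.33), whereas the 5 member probes were below background there, with fitted differences of -0.51 to 0.16. Saa3, an acute-phase gene, was higher in KO by 1.06 and 2.82 in the ipsilateral pairs.

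**Figure D4:**
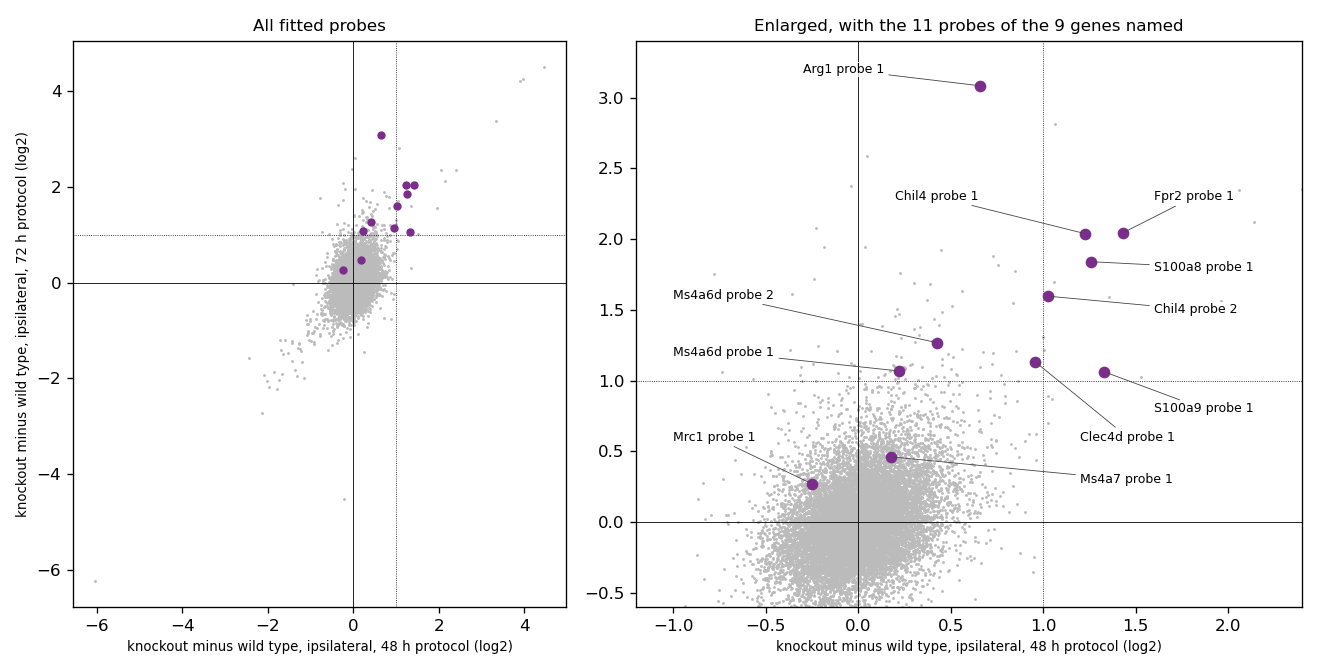
Knockout minus wild type difference in ipsilateral tissue under the 48 h protocol (x axis) and the 72 h protocol (y axis), both log2, for all 16067 fitted probes (grey) and the 11 probes of the 9 genes (purple), with the full range at left and an enlargement at right. Dotted lines mark a 2-fold excess in KO. Fitted differences are drawn, with no bound applied. Arg1 stands at 0.66 and 3.08, and the probes of S100a8, S100a9, Fpr2 and Chil4 lie past both dotted lines, S100a9 at 72 h with a bound of 1.98-fold.

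The genotype difference over all 5 conditions was called for none of the 11 probes by limma (adjusted p from 0.140 to 0.698), and for 0.977% of all fitted probes. At an unadjusted p under 0.05 there were 6 of 11, against 16.8%. Among the 6 were S100a9, Fpr2 and Chil4 probe 2, which needed KO arrays to pass the filter. The differences were positive for 10 of the 11, with 0.90 ± 0.27 for Fpr2, 0.87 ± 0.44 for S100a8 and 0.85 ± 0.24 for Chil4 probe 1, and -0.20 for Mrc1. Whether the KO excess was larger in ipsilateral than in other tissue was tested in a model with that term and 3 residual degrees of freedom. No member probe and no other fitted probe passed (0%), the smallest adjusted p being 0.563, for Clec4d (1.09 ± 0.15). In that test 7 of the 11 had an unadjusted p under 0.05, against 3.43%. Among the 7 were Clec4d, Arg1, Ms4a7, Chil4 probe 2 and Ms4a6d probe 2, all below background outside ipsilateral tissue. Their genotype differences there are between background values, so this count carries the limits of background and filter. The term was 1.77 ± 0.56 for Arg1, 1.40 ± 0.33 for Fpr2 and 1.30 ± 0.26 for Chil4 probe 1. Arg1 was called without either ipsilateral array of the 48 h protocol (2.99, adjusted p = 0.0195).

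Few probes of other neutrophil genes were above background on these arrays. Of 25 listed, 22 had a probe and 7 entered the fit. Counts of called genes in this and the lists that follow stand beside the 9.63% (48 h) and 7.62% (72 h) of all fitted probes called higher, and counts with KO higher beside 49.0% and 47.4%. Listed genes passed the same detection filter, some on few arrays (Hp on 2 and Ncf4 on 4). Where such genes are counted, the counts carry the limit of the filter. The 14 below background on all arrays included Mpo, Elane and Prtn3, the granule enzymes of immature neutrophils, Ngp, a granule protein, and Cxcr2, a chemokine receptor. P2ry12 of the resting microglia list and Nefl of the neuronal list were below background on all arrays too. A probe below background therefore does not show that its gene was silent. At 48 h, 4 of the 7 were higher in ipsilateral tissue, with Lcn2, a siderophore-binding protein that astrocytes also make, higher by 3.13, Ncf4, an NADPH oxidase subunit, at least 2.82-fold, Retnlg by 1.09 and Mmp9 by 0.49. Camp, an antimicrobial peptide gene, fell by 0.83. At 72 h, 3 of the 7 were higher (Lcn2, Ncf4 and Csf3r). Their medians were 0.49 and 0.62. In ipsilateral tissue KO was higher for 6 of the 7 at 48 h and 7 of the 7 at 72 h, with medians of 0.43 and 0.53. Retnlg, a resistin-like gene of neutrophils, was also the gene most like S100a9, with the same KO contralateral array at 48 h high (5.78, against 4.75 in WT).

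Of the other monocyte and recruited macrophage genes, 28 were listed, 23 had a probe and 11 entered the fit. Ccr2, the receptor of inflammatory monocytes, and Plac8 were among 11 below background on all arrays. At 48 h 10 of the 11 fitted were higher in ipsilateral tissue and at 72 h 9 were, with medians of 1.89 and 1.78. Among those called, Ms4a6c (detected on 2 arrays) and Fcgr1 (on 4) were detected in no contralateral sample. Their ipsilateral excess carries the limit of the filter. Lgals3, encoding galectin-3, rose by 3.41 and 4.63, Lyz2, a lysozyme gene, by 2.89 and 3.87, Gpnmb by 1.89 and 3.99, and Fcgr4, an IgG receptor gene, by 2.55 and 3.43. KO minus WT in ipsilateral tissue had medians of 0.27 and 0.53. Lgals3 was the only gene called between genotypes in the 8 lists given here (0.77, adjusted p = 0.031).

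Of 19 other genes of alternative activation, 6 entered the fit and 12 were below background on all arrays, including Retnla and Il10. Among the 6, Socs3, a cytokine-signalling inhibitor, rose by 2.48 and 2.26 and Tgm2, a transglutaminase, by 1.92 and 1.62, and Mgl2 passed at 72 h. The KO minus WT medians in ipsilateral tissue were -0.09 and 0.35 in this list, and Socs3 was higher in KO by 0.33 and 1.32. Of 12 border-associated macrophage genes, which share Mrc1's cell type in brain, 5 were fitted. At 48 h 4 of these rose and at 72 h 3 rose, among them Cbr2 (by 1.39 and 1.70) and Folr2 (at least 1.32-fold and 2.93-fold), while Cd163 was below background throughout. Of 12 fitted genes of resting microglia, 8 and 10 rose in the 2 protocols, with medians of 0.58 and 0.94, and KO was higher in ipsilateral tissue for 2 and 4 of the 12, with medians of -0.22 and -0.12. These lists serve as descriptions beside the medians of all fitted probes (-0.04 at 48 h and -0.07 at 72 h between hemispheres).

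**Figure D5:**
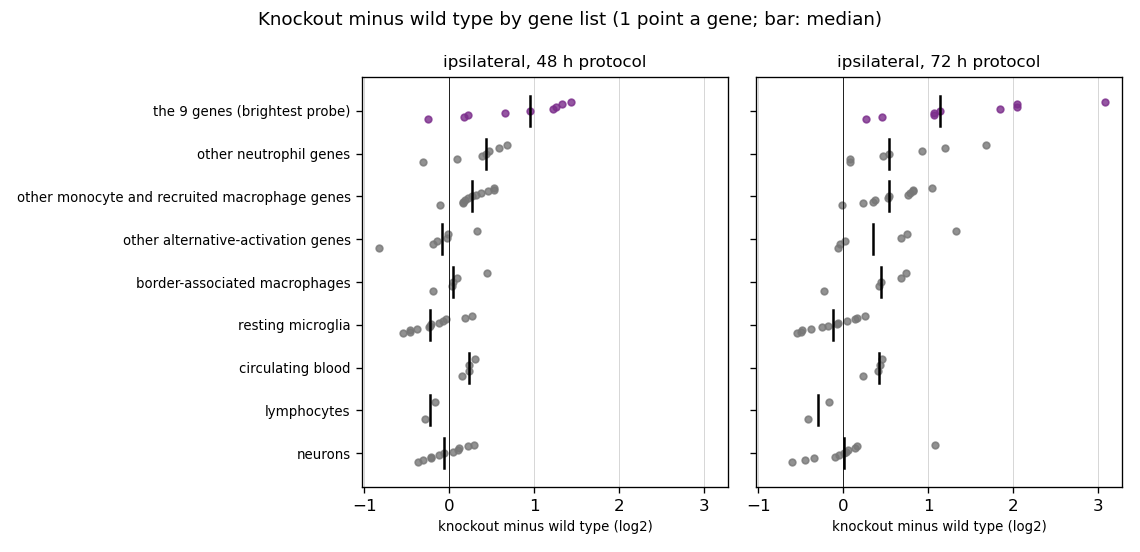
Knockout minus wild type difference (x axis, log2) in ipsilateral tissue at 48 h (left) and 72 h (right), 1 point per gene (brightest probe), for the 9 genes and 8 other lists, with a bar at each median. The 9 genes reach farthest to the right, and resting microglia lie mostly below 0. The 9 genes were chosen with earlier results of these data known. Of these, S100a9, Fpr2, Clec4d, Arg1 and Ms4a7 needed a KO array to pass the detection filter.

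Genes of circulating blood moved with some of these differences. The 4 fitted, globin genes and Alas2, were higher in KO in both ipsilateral pairs, with medians of 0.23 and 0.42, and 5 of the 10 with a probe, including Ppbp, were below background on all arrays. Their summed level was 14.24 in WT and 14.88 in KO contralateral tissue at 48 h, the pair in which S100a8 and S100a9 were also far apart. It was 14.87 and 14.82 in untreated, 14.93 and 15.15 in ipsilateral 48 h, 14.34 and 14.36 in contralateral 72 h, and 14.28 and 14.66 in ipsilateral 72 h tissue. The globin genes lay far above Alas2, so these sums mostly follow the globins and give no measure of leukocytes in blood. The part of blood in the genotype differences was not tested. Of 12 lymphocyte genes with a probe, 10 were below background on all arrays, including Cd3e, Cd79a and Ms4a1. Neuronal genes, which mark the tissue as brain, had summed levels of 15.36 to 15.65 on all 10 arrays, and 11 of 12 entered the fit. These sums mostly follow the brightest probes. Between hemispheres the medians of the 11 were -0.27 at 48 h and -0.23 at 72 h, with 2 and 0 positive. Rbfox3 was called lower in ipsilateral tissue at 48 h (-0.53, limma adjusted p = 0.0231).

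Across the 10 arrays, the brightest probes of the 9 genes correlated with each other with Pearson's r from 0.44 (Fpr2 with Ms4a7) to 0.98 (Arg1 with Chil4), with a median of 0.83 over 36 pairs. The arrays share conditions and genotypes, so these values are descriptions. Among 9336 other genes, the pattern most like that of Ms4a7 was that of Folr2 (r = 0.99), a folate receptor gene of border-associated macrophages, followed by Fcrl1. Clec4d was most like Slpi, a protease inhibitor gene, and Ptx3, a pentraxin gene (both r = 0.98). Ms4a6d was most like Anxa2 and Tgm1, Arg1 like Itih4 and Rnf125, and Chil4 like Arf6 and Brix1 (r from 0.986 to 0.996). S100a8 was nearest to Arfgef2 (0.97) and Srarp (0.96), and Fpr2 had the weakest best match, Riok1 (0.94). Mrc1 was nearest to Vmp1 (0.99) and Tmod3 (0.98).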

How the data were processed

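Total RNA of 10 mouse brain samples was extracted with Trizol, amplified, labelled with biotin and hybridised to Illumina arrays, per the labels. The deposited non-normalized table holds linear bead intensity per probe and array. The deposited detection p-value rises with intensity and was therefore read as 1 minus p. The authors' value table holds intensity that was, from its values, quantile-normalized in 5 pairs of arrays (sorted values equal within 1% at 99.98% or more of ranks within a pair and at most 56.1% between pairs), and served only as an alternative. The authors' software and settings, and any chip or batch, are not given in the sources used here.

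Background was removed with the nec function of limma 3.58.1 (R 4.3.3, offset 16), which inferred negative controls from the detection p-values. Quantile normalization and log2 followed. Of 46373 probes, 29800 had 1 gene in the platform annotation, 10 had several and 16563 had none, and 29758 were matched to RefSeq (GRCm38.p6). The 16067 probes above background (detection p under 0.01) on 2 arrays or more were fitted with condition and genotype as terms, with 4 residual degrees of freedom. P-values were adjusted by Benjamini-Hochberg over all fitted probes, with a threshold of 0.05. With no replicate of a group, the residual is the genotype difference across conditions, and p-values measure only how steady a difference was between arrays. Folds given as at least a value set an undetected side to the lowest detected level of its array or its own value, whichever was higher. Differences given for a pair of arrays are otherwise fitted values. Bounds cover no spread between arrays, whose number limits the precision. All member probes are named. Of other lists, each gene stood by its brightest probe, and up to 4 called members with the largest change were named. Listed genes below background were named after their values were seen. The 2 genes most like each member were found by Pearson's r. The members, lists and tests were chosen with earlier results of these data known. The fit was run on simulated data with independent noise and no genotype difference. Such data follow the model, so that run does not test the p-values given here. The alternatives tried were omitting the background correction, centring each array on its median in place of quantiles, the authors' value table, no detection filter, detection on all 10 arrays, the brightest probe per gene, a variance trend with robust prior, the arrays of a protocol alone, and leaving out each array. Hemispheres as a block and 2-fold counts by the bound were added after seeing the data.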

Additional observations from a re-analysis of the deposited data

How the results depend on the processing

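Counts are of the 11 member probes, with the cause of each change not tested unless stated. At 48 h, 8 were called higher in ipsilateral tissue, against 4 with no detection filter, 7 to 11 under the other settings and 3 to 9 when 1 array was left out. At 72 h, 6 were called, against 5 to 7 and, leaving out 1 array, 5 to 8. Arg1 lost its call with no detection filter (adjusted p = 0.103 and 0.170) and with a variance trend (0.0845 and 0.137). Clec4d and the Chil4 probes lost theirs at 48 h with no filter (0.078, 0.0575 and 0.175). S100a8 at 48 h passed under 6 settings beside the left-out arrays, among them no background correction (1.62, adjusted p = 0.0218) and the authors' value table (1.82, adjusted p = 0.0176). At 72 h it passed with median centring (adjusted p = 0.0492) and with the protocol's arrays alone (0.0325), and Chil4 probe 2 with no background correction (0.0229) and the authors' value table (0.016). Between protocols, 1 probe was called, against 2 with median centring, 0 with no filter and 0 to 1 leaving out 1 array. The genotype count was 0 throughout and the ipsilateral term gave 0, or 0 to 1 leaving out 1 array. Probes at least 2-fold higher in KO fell with no background correction from 2 to 1 (contralateral, 48 h), 5 to 1 (ipsilateral, 48 h) and 9 to 5 (ipsilateral, 72 h), the last also 5 with the authors' value table. By the background bound, chosen after seeing the data, they were 1, 5 and 7. Signs turned in a few values that had not been called. Leaving out 1 array, the 72 h hemisphere difference of Fpr2 ran from -0.24 (without KO ipsilateral) to 1.19, the genotype difference of Ms4a7 from -0.0097 (without either 72 h ipsilateral array) to 0.14 and the ipsilateral term of Ms4a6d probe 1 from -0.13 (likewise) to 0.72. Between protocols the ranges were -1.41 to 0.020 for Fpr2, -1.74 to 1.10 for Arg1, -0.85 to 0.64 for Chil4 probe 1, -0.85 to 0.46 for its probe 2 and -0.50 to 0.60 for Ms4a6d probe 2, with the extremes lying without the KO or the WT ipsilateral array of the 72 h protocol. Ms4a6d probe 2 was -0.22 with median centring. Over all fitted probes, calls at 48 h were 2621, against 7295 with median centring and 5295 with the protocol's arrays alone (613 to 2916 leaving out 1 array). Calls at 72 h were 1664 (665 to 1735). Between protocols they were 304, against 629 with no background correction, 2662 with median centring, 22 with no filter and 666 with a trend (4 to 403). Between genotypes they were 157, against 273 with no background correction and 277 with a trend (74 to 223). Median centring moved the share called higher from 59.1% to 98.9% at 48 h, 73.6% to 95.1% at 72 h and 54.9% to 4.28% between protocols, and the median of all probes at 48 h from -0.04 to 0.40. Detection on all 10 arrays left no member probe. The labels number no replicates. With the hemispheres of a genotype and protocol as a replicate block (8 arrays, chosen after seeing the data), 11 member probes were called at 48 h and 6 at 72 h, and 4386 and 2649 of all fitted probes. Signal near background limits S100a9, Clec4d, Ms4a7 and the dimmer probes.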
